A study of Mus musculus with 8 samples.

Results

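The serpins are a superfamily of serine protease inhibitors, and 60 genes whose array name starts with Serpin were followed here in newborn mouse liver. They were chosen by name from the non-control probes of the array and account for 77 of 55681 probes and 60 of 34741 gene symbols. RNA came from the livers of C57BL/6J pups delivered by caesarean section at E19.5, just before term, and killed 4 h later. Of these, 4 were wild-type, and 4 were littermates carrying a maternally transmitted deletion that removes the miR-379/miR-410 cluster of microRNA genes, called knockout below. The deletion is inherited and thus not confined to hepatocytes, and its limits are not given in the sources used here. Each liver was hybridised to 1 single-colour Agilent array, and each gene was compared between the 4 wild-type and the 4 knockout arrays.

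An inhibitory serpin offers a flexible loop as bait to its target protease. When the protease cuts the loop, the serpin snaps into a new shape and holds the enzyme in a covalent complex, so each molecule is spent on 1 target. Family members are sorted by sequence into clades, given by the letter in the gene name. The liver makes most of the serpins of blood plasma, including the clade A antitrypsins and antichymotrypsins, antithrombin (Serpinc1), heparin cofactor II (Serpind1), antiplasmin (Serpinf2) and the C1 inhibitor (Serping1). Other members have given up inhibition and carry hormones or fold collagen, and clade B members mostly stay inside cells.

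A gene was kept for the comparison when a probe was well above background, by the scanner's own call, on at least 4 of the 8 arrays, and 38 of the 60 passed. All 38 were above background on all 8 arrays. Clade A kept 21 of 24 genes and clade B 9 of 27. The genes followed in clades C, D, E, G and H, 1 in each, and the 2 of clade F were all kept. In clade I, Serpini1 was kept and Serpini2 was not. Of the 22 genes left out, 16 were above background on no array, 13 of them in clade B, and 6 on 1 to 3 arrays. The antitrypsin gene Serpina1b had no probe under that name.

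Levels below are the processed signal of a gene's probe divided by the 75th percentile of the same array, or the log2 of that ratio, and each gene is represented by its kept probe with the highest mean. Differences are knockout minus wild-type on the log2 scale with the standard error (SE) of the limma fit, and adjusted p-values are Benjamini-Hochberg values over all 23526 genes tested. The 75th percentile lay between 508.6 and 643.7, between 58.6% and 66.2% of spots were well above background, and no spot was saturated. All 8 arrays shared 1 slide and 1 scan, with the wild-type arrays in 1 slide column and the knockout arrays in the other, and an effect of the column cannot be told apart from one of genotype. All 9 hepatocyte markers examined, among them albumin and alpha-fetoprotein, were above background on every array. Replicate 4 of each group may not be an independent sample. Wild-type 4 was fitted as a weighted sum of the other wild-type arrays on the log2 scale, with weights made to sum to 1. The weights were 0.0845, 0.363 and 0.553 for replicates 1, 2 and 3 over the 23488 other genes tested. For knockout 4 they were 0.136, 0.244 and 0.62. The median absolute error over the Serpin genes was 0.0629 for wild-type 4 and 0.0428 for knockout 4. The same fit was not made for replicates 1 to 3, so the weights alone do not set replicate 4 apart. Of the 38 Serpin genes, 28 in wild-type 4 and 27 in knockout 4 lay between replicates 2 and 3 of their group, 73.7% and 71.1%, against 48.1% and 52.3% of all genes. Among replicates 1 to 3, an array lay between the other 2 of its group for 23.6% to 40.2% of all genes. Results are for this reason followed by those of the 6 arrays numbered 1 to 3, 3 per group. Nothing in the bulk tissue tells fewer cells of a type from less RNA per cell.

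None of the 38 Serpin genes passed the threshold. For comparison, 0.217% of the genes tested passed at an adjusted p under 0.05 (limma), 42 of them lower and 9 higher. The smallest adjusted p in the family was 0.0645, for Serpina11. At an unadjusted p under 0.05, 6 of the 38 members differed, or 15.8%, with 5 lower and 1 higher. Among all genes, 6.48% were lower and 6.84% higher by that looser rule. The lower members were Serpina3c, Serpina3m, Serpina5, Serpina9 and Serpina11, and the higher member was Serpina3i. The highest knockout array lay below the lowest wild-type array for 4 members, against 4.33% of all genes, and the reverse held for 1 member, against 4.72%. With 6 arrays 0 Serpin genes passed (smallest adjusted p = 0.497, limma), while 0.0255% of all genes did. In that fit 4 members had an unadjusted p under 0.05, 3 lower and 1 higher, and 7.33% of all genes had one in either direction.

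Most members had slightly lower means in knockout livers. This held for 29 of the 38, and for 10233 of all 23526 genes tested. The median difference was -0.07 over the members, where the median of all genes was 0.03. The medians were -0.07 for the 21 genes of clade A and -0.04 for the 9 of clade B. The sizes differed more than the medians: the median absolute difference was 0.25 in clade A and 0.07 in clade B, and 0.12 over all genes. Without wild-type 1 the split changed to 22 lower and 16 higher. That array held the highest wild-type value for 22 of the 38 members, 57.9%, against 34.2% of all genes.

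**Figure D1:**
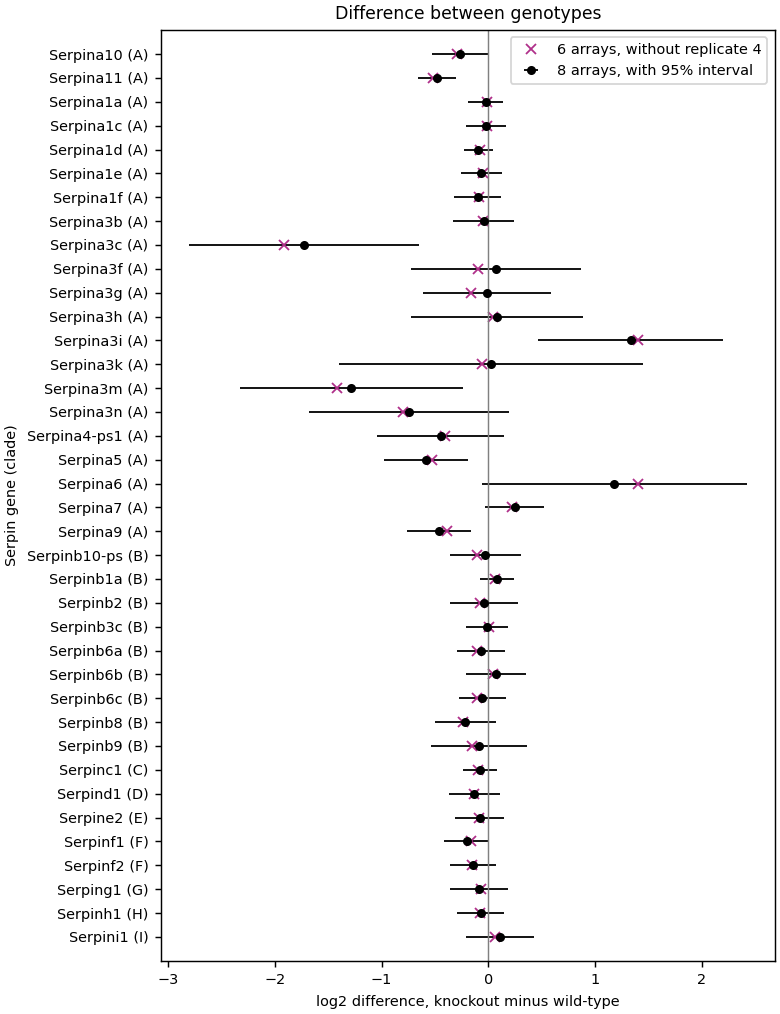
Log2 difference between knockout and wild-type livers for the 38 kept Serpin genes, grouped by clade (horizontal axis, log2 units). Points with bars are the 8-array estimates with 95% intervals and crosses the 6-array estimates; the intervals of 6 genes leave out 0, and Serpina3c, Serpina3i, Serpina3m and Serpina6 lie farthest from 0.

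The antitrypsins differed little between the groups. The Serpina1 genes encode copies of alpha-1-antitrypsin, the main plasma inhibitor of neutrophil elastase, and mice have several in a row. Serpina1c stood at 764, 963, 860 and 842 times the array's 75th percentile in wild-type 1 to 4 and at 875, 844, 836 and 806 in knockout 1 to 4, so the groups overlapped. Its log2 level was 9.74 ± 0.14 (SD, n = 4) in wild-type and 9.71 ± 0.05 in knockout livers, a difference of -0.02 (95% interval -0.21 to 0.17). Serpina1a differed by -0.03 (-0.19 to 0.14), Serpina1d by -0.09 (-0.23 to 0.04) and Serpina1e by -0.07 (-0.26 to 0.12). The directions of Serpina1a and Serpina1c turned under some scalings. Signals of Serpina1a, Serpina1c and Serpina1e cannot be read as separate, because the Serpina1c probe resembles those of the other genes. The Serpina1d probes matched no other Serpin probe over at least 40 bases at 80% identity or more. Whether they also bind RNA of the other copies was not tested. The Serpina1c and Serpina1e probes matched at 49 of 59 overlapping bases. The Serpina1a and Serpina1c probes matched at 50 of 51 overlapping bases, and these 30-base stretches show the only mismatch in capitals, with A4G as the change counted from the 5′ end of the Serpina1a probe:
Serpina1a: taaAatgtcatccttccttctgaattgggt
Serpina1c: taaGatgtcatccttccttctgaattgggt

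The same held for the serpins of clotting, fibrinolysis and complement. Antithrombin, which blocks thrombin and factor Xa, stood at 393, 369, 402 and 380 times the 75th percentile in wild-type 1 to 4 and at 360, 341, 392 and 370 in knockout 1 to 4. The ranges overlapped, and Serpinc1 differed by -0.08 (95% interval -0.24 to 0.08). Heparin cofactor II, a second thrombin inhibitor, differed by -0.13 (-0.37 to 0.11). Antiplasmin (Serpinf2), which limits the dissolving of clots, differed by -0.14 (-0.36 to 0.08). The C1 inhibitor Serping1 differed by -0.09 (-0.36 to 0.18), and its knockout values fell into 93.2 and 79.2 for replicates 1 and 2 and 66.7 and 71.1 for replicates 3 and 4. Serpina10, which inhibits factor Xa with protein Z, differed by -0.26 (SE 0.11, adjusted p = 0.375, limma), and the 6-array value was -0.29. By its other, dimmer probe Serpina10 differed by -0.32 (SE 0.10, unadjusted p = 0.0109, adjusted p = 0.251, limma). On that probe every knockout array lay below every wild-type array. For the probes that represent these genes no interval left out 0, which does not show that the levels were equal.

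The Serpina3 genes varied most from array to array. In mice the single antichymotrypsin gene of humans corresponds to a row of Serpina3 copies, several of which are acute phase or hormone-responsive genes of the liver. The median SD of the 9 kept Serpina3 genes was 0.66 in wild-type and 0.50 in knockout livers, against 0.16 and 0.11 for the other Serpin genes and 0.17 and 0.13 for all genes. Wild-type 1 held the highest wild-type value for 9 of the 9. Among the knockout arrays, knockout 2 was highest for 5 of the 9.

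Serpina3k, which encodes a kallikrein-binding plasma inhibitor, swung within both groups. Its signal was 107, 43.3, 26.9 and 36.2 times the 75th percentile in wild-type 1 to 4 and 60.9, 115, 15.7 and 44.3 in knockout 1 to 4. Knockout 2 and knockout 3 therefore marked both ends of all 8 arrays. Its mean difference was 0.03 with an SE of 0.62, and the 95% interval ran from -1.40 to 1.45. Its direction turned to -0.06 with 6 arrays.

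Serpina3c and Serpina3m were lower on every knockout array than on any wild-type array. Serpina3c, a further antichymotrypsin copy, stood at 19.46, 4.68, 3.65 and 4.85 in wild-type 1 to 4 and at 1.58, 2.06, 1.92 and 2.14 in knockout 1 to 4. Wild-type 1 stood far above the rest of its group. The difference was -1.73 (SE 0.47, adjusted p = 0.191, limma), a 3.32-fold lower mean, and -1.91 with 6 arrays (adjusted p = 0.600). Without wild-type 1 the difference shrank to -1.19 and passed the threshold (adjusted p = 0.0263). Serpina3m, another contrapsin-like gene, stood at 125, 36, 26 and 31.2 in wild-type and at 16, 24.9, 15.4 and 16.8 in knockout livers. It differed by -1.28 (SE 0.46, adjusted p = 0.284, limma), by -1.41 with 6 arrays and by -0.78 without wild-type 1. Its close neighbour Serpina3n, an acute phase inhibitor of granzyme B and other proteases, stood at 76.1, 30.7, 16.7 and 25.4 against 22.7, 21.8, 15.1 and 16.9. There the groups overlapped, and the difference of -0.74 (SE 0.41, adjusted p = 0.461, limma) was -0.32 without wild-type 1.

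Serpina3f, and Serpina3g, singled out after its values were seen, went the other way within the knockout group. Serpina3g, an intracellular inhibitor of cathepsins in T cells, stood at 5.87 and 6.87 in knockout 1 and 2 and at 13.3 and 11.1 in knockout 3 and 4, while the wild-type arrays lay between 7.88 and 11.3. Serpina3f stood at 0.358, 0.501, 1.18 and 0.936 in knockout 1 to 4 and between 0.562 and 0.758 in wild-type livers. Knockout 3 and 4 were thus the highest of all 8 arrays for Serpina3f by this probe. On its other probe knockout 3 was highest at 0.299, and wild-type 2 at 0.245 lay above knockout 4 at 0.230. That probe lies at chr12:105492556-105492615 (mm9), beside the Serpina3h probe at chr12:105491733-105491792, while the first Serpina3f probe lies at chr12:105458989-105459048. Whether it also reads RNA of the neighbouring gene was not tested. The group means differed by only 0.07 for Serpina3f and -0.01 for Serpina3g. The Serpina3f difference turned to -0.10 with 6 arrays and to -0.58 without knockout 3 and 4.

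The first 30 bases of the 60-base probes behind these values, 5′ to 3′, show that the Serpina3 probes printed here begin with different bases. Probes were compared only with one another, and binding of RNA from another copy was not tested. They lie on chromosome 12 (mm9) at chr12:105385352-105385411 for Serpina3c (minus strand), chr12:105583645-105583704 for Serpina3k, chr12:105632110-105632169 for Serpina3m and chr12:105651918-105651977 for Serpina3n (plus strand).
Serpina3c: gactctgagatggaccctatatgtggatct
Serpina3k: caagttctcatgattctgtccagggctctg
Serpina3m: tatggccaaagtcactaaccccaagtgaac
Serpina3n: ttggcatgcctggattagatagtgactaac

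**Figure D2:**
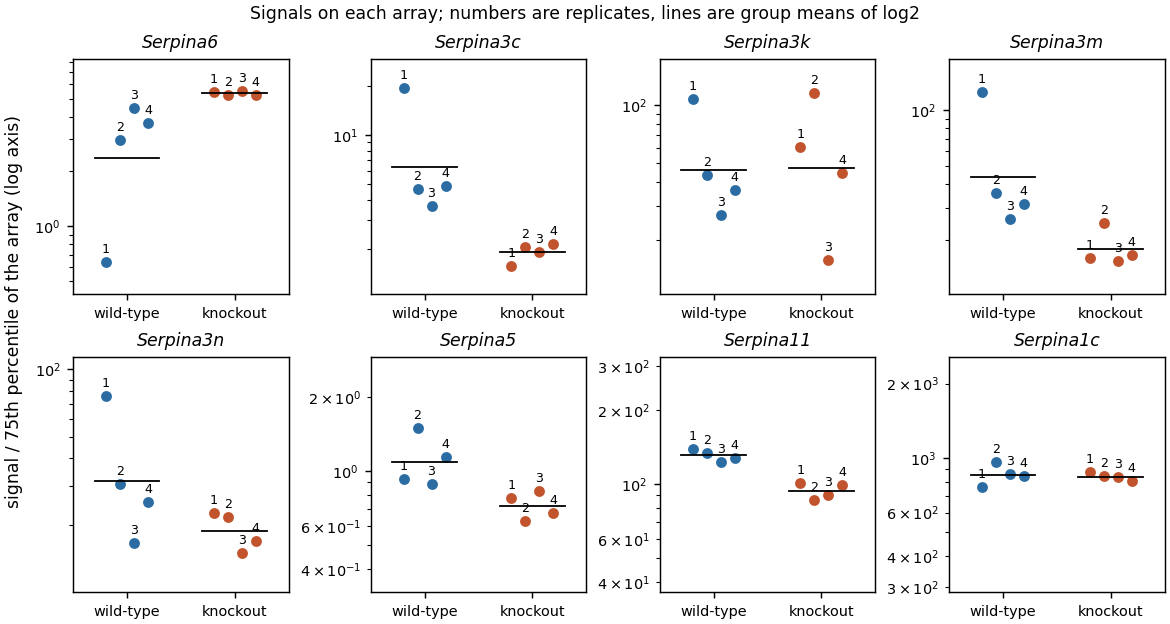
Signal divided by the array's 75th percentile (log axis) for 8 Serpin genes, with 1 point per array, the replicate number beside it and the group mean of log2 values as a line. Wild-type 1 stands apart for Serpina6, Serpina3c, Serpina3m and Serpina3n, the groups do not overlap for Serpina5 and Serpina11, and Serpina1c is level.

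The smallest p in the family belonged to Serpina11, a liver serpin whose target is not established. It stood at 139, 134, 123 and 128 times the 75th percentile in wild-type 1 to 4 and at 101, 86.1, 90.2 and 99.1 in knockout 1 to 4, with no overlap. The difference was -0.48 (SE 0.08, adjusted p = 0.0645, limma), a 1.40-fold lower mean, and -0.52 with 6 arrays (adjusted p = 0.497). It passed the threshold in 6 of 23 alternative settings, all with 8 arrays. The value rests on 1 of the gene's 2 probes. The other probe stood at 67.5, 64.7, 59.2 and 56.8 in wild-type and at 48.7, 94.8, 47.9 and 60 in knockout livers, and differed by -0.04 (SE 0.21). Knockout 2 was the highest array for that probe and the lowest for the first. With the mean of both probes the difference was -0.26 (adjusted p = 0.362, limma).

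The Serpina11 probes cover nearly the same place on the minus strand, chr12:105218465-105218524 for the first and chr12:105218462-105218521 for the other (mm9), and differ at 4 of 57 overlapping bases. The files assign the first to a RefSeq transcript and the other to a separate cDNA record. Counted from the 5′ end of the other probe, the changes are C10T, C22T, C24T and G28T. Capitals mark them:
other Serpina11 probe: cctgcaCggcaggaccccCgCgctGcagtt
first Serpina11 probe: cctgcaTggcaggaccccTgTgctTcagtt
The signal of the other probe was 0.484, 0.483, 0.482 and 0.445 times that of the first in wild-type 1 to 4. In knockout 1 the ratio was 0.485, in knockout 2 it was 1.1, and in knockout 3 and 4 it was 0.531 and 0.605. A ratio within 1 array shows only that both probes changed unequally, and which version of the sequence each liver carried was not analysed here.

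Serpina3i gave a second such case. Its first probe stood at 0.337, 0.249, 0.198 and 0.225 in wild-type and at 0.964, 1.03, 0.311 and 0.486 in knockout livers, a difference of 1.33 (SE 0.38, adjusted p = 0.201, limma). The value with 6 arrays was 1.41. Its other probe differed by -0.26 (SE 0.21), and the mean of both by 0.54. The ratio of the first probe to the other lay between 0.898 and 1.20 on the wild-type arrays and was 5.55, 5.95, 1.27 and 2.18 on knockout 1 to 4. The first probe lies at chr12:105504738-105504797 and the other at chr12:105506705-105506764 (mm9, plus strand), at different sequences, as their first 30 bases show:
first Serpina3i probe: atgatgaaaatagaggaactaactacaccc
other Serpina3i probe: gctgccacaggagtcaaagttaatctacgt
The other probe resembled the Serpina3h probe at 51 of 57 bases, so signal of the neighbouring gene cannot be told from its own. Capitals mark the mismatches:
Serpina3h: caggGgtcaaaTtAaTtctaTgttgtgAaa
Serpina3i: caggAgtcaaaGtTaAtctaCgttgtgGaa

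The probes of the other genes kept a steadier ratio. There were 12 genes with 2 kept probes in all. The range of the log2 ratio over the 8 arrays was 0.15 for Serpina10, 0.19 for Serpina6, 0.11 for Serpinf1, 0.19 for Serping1, 0.15 for Serpina4-ps1 and 0.11 for Serpina1e. It was 0.28 for Serpina1a and 0.33 for Serpina1d, and 0.43 for Serpinb6c and 0.71 for Serpina3f, the widest after Serpina11 (1.31) and Serpina3i (2.73). Among all 2926 pairs of Serpin probes, 12 were alike over at least 40 bases at 80% identity or more, 9 of them between different genes. The Serpinb6a and Serpinb6c probes were among these, at 55 of 59 bases.

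**Figure D3:**
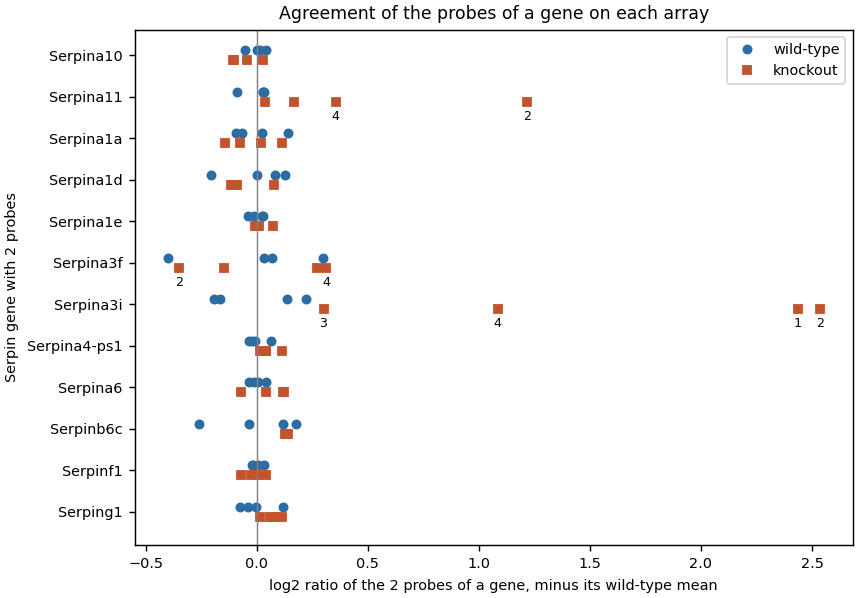
Log2 ratio of the 2 kept probes of a gene on each array, minus the mean of the 4 wild-type arrays (horizontal axis, log2 units), for the 12 Serpin genes with 2 kept probes; knockout points beyond 0.3 carry their replicate number. The ratios of Serpina11 and Serpina3i moved on some knockout arrays, and those of the other 10 genes varied by 0.71 or less over the 8 arrays.

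Serpina9 and Serpina5 were also lower. Serpina9, known from germinal centre B cells, stood at 0.135, 0.193, 0.171 and 0.178 in wild-type and at 0.135, 0.135, 0.108 and 0.112 in knockout livers, a difference of -0.46 (SE 0.13, adjusted p = 0.203, limma). The wild-type 1 value lay at the level of knockout 1 and 2. Serpina5, the protein C inhibitor, stood at 0.932, 1.5, 0.883 and 1.14 in wild-type and at 0.777, 0.63, 0.831 and 0.678 in knockout livers, with no overlap. Its difference was -0.59 (SE 0.17, adjusted p = 0.214, limma). The 6-array values were -0.39 and -0.53.

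The clade A members that carry hormones had higher means in knockout livers. Serpina6 is corticosteroid-binding globulin, the plasma carrier of glucocorticoids, and it does not inhibit proteases. Its signal was 0.637, 2.98, 4.47 and 3.69 times the 75th percentile in wild-type 1 to 4 and 5.44, 5.25, 5.5 and 5.23 in knockout 1 to 4. Every knockout array exceeded every wild-type array, the knockout arrays were almost equal, and wild-type 1 lay far below the others. The mean log2 level was 2.42 ± 0.04 (SD, n = 4) in knockout and 1.24 ± 1.28 in wild-type livers. The difference was 1.18 (SE 0.54, adjusted p = 0.398, limma), 1.40 with 6 arrays and 0.55 without wild-type 1. The other Serpina6 probe gave 1.12. Serpina7, thyroxine-binding globulin, is the family's only clade A member on the X chromosome here. It stood between 1.92 and 2.78 in wild-type and between 2.63 and 2.93 in knockout livers, a difference of 0.25 (SE 0.12, adjusted p = 0.421, limma). Its ranges overlapped. The Serpina6 probe lies on the minus strand at chr12:104884880-104884939 (mm9), and its first 30 bases are:
Serpina6: atcttgtaatgaataggccttgttgctact

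**Figure D4:**
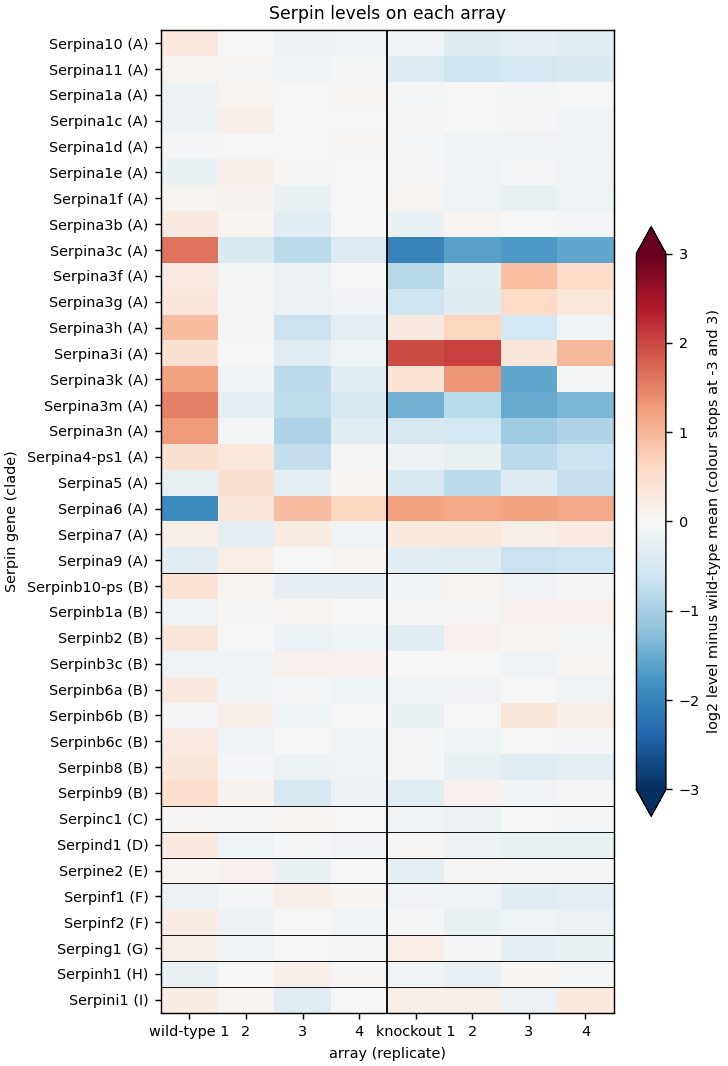
Level of the 38 kept Serpin genes on each array minus the gene's wild-type mean (colour, log2 units, stopping at -3 and 3), with arrays in columns and genes by clade in rows. Most rows are pale, while Serpina3 rows and Serpina6 change colour between arrays of 1 group.

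Clade B, the intracellular serpins that guard cells against their own proteases, stayed within 0.22 log2 of wild-type. All 9 kept members had differences between -0.22 and 0.08, and 0 of them reached an unadjusted p under 0.05. Serpinb1a, an inhibitor of neutrophil elastase and related granule proteases, differed by 0.08 (95% interval -0.08 to 0.24). Serpinb6a differed by -0.07 (-0.30 to 0.15) and Serpinb8, an inhibitor of furin, by -0.22 (-0.50 to 0.07). Serpinb6b differed by 0.07 (-0.21 to 0.35), and its direction turned without knockout 3. Serpinb9, which blocks granzyme B, differed by -0.08 (-0.53 to 0.37), with a spread of 0.112 to 0.216 in wild-type and 0.121 to 0.167 in knockout livers.

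The next members belong to clades E, F, H and I. Serpinh1, or HSP47, is a chaperone of procollagen in the endoplasmic reticulum, and it differed by -0.07 (95% interval -0.29 to 0.14). Serpinf1, pigment epithelium-derived factor, does not inhibit proteases. It stood at 114, 124, 143 and 132 in wild-type and at 118, 118, 102 and 106 in knockout livers, overlapping only through wild-type 1. Its difference was -0.20 (SE 0.09, adjusted p = 0.395, limma). By its other probe Serpinf1 differed by -0.21 (SE 0.09, unadjusted p = 0.0363, adjusted p = 0.363, limma). On that probe the groups narrowly did not overlap, with 21.55 on wild-type 1 and 21.52 on knockout 1. Serpine2, protease nexin 1, a tissue inhibitor of thrombin and urokinase, differed by -0.08 (95% interval -0.31 to 0.15). Serpini1, neuroserpin, differed by 0.11 (-0.21 to 0.43).

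Serpini2, a serpin of the exocrine pancreas, was above background on 2 arrays only. Its processed signal was 111 on wild-type 3 and 53.3 on wild-type 4, and between 2.8 and 7.3 on the other 6. Most pancreas markers moved with it. Of 12 such genes, 8 were tested. In 7 of them wild-type 3 and 4 were the highest arrays, while Cela1 was highest on knockout 2 and differed by 0.32. Their summed level ran from 3.66 to 59.0 in wild-type and from 4.17 to 4.73 in knockout livers. Their mean log2 level was 2.46 and 1.46 above the wild-type mean on wild-type 3 and 4, and below it on every other array. The lipase Pnlip was above background on no array. The part of pancreatic RNA in the Serpini2 signal was not tested. Its probe begins with the bases ggtcttagaatacaagacacctcctggaaa and lies on chromosome 3.

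The clade A genes on chromosome 12 form 1 block. In mm9 their 33 probes, from 23 genes, span 797.1 kb from 104854887 to 105651977. The block lies 5.33 Mb before the first probe of Mirg, the host transcript of microRNAs in the imprinted domain that holds the deleted cluster. Of the 20 kept genes in the block, 15 had lower means in knockout livers, and so did 14 of the 18 elsewhere. Over all genes, 10233 of 23526 had lower means. The block held all 6 members with an unadjusted p under 0.05, 5 lower and 1 higher. The 18 genes elsewhere held 0, where 6.48% of all genes were lower and 6.84% higher by that rule. These counts depend on the probe chosen for a gene. By their other probes, Serpina11 and Serpina3i in the block had unadjusted p-values of 0.863 and 0.260, and Serpina10 had 0.0109 (limma). Serpinf1, outside the block, had 0.0363 by its other probe (limma). The median difference was -0.08 in the block and -0.07 elsewhere, and the median absolute differences were 0.18 and 0.08. Along the block the Serpina1 genes sat near 0. Serpina11 and Serpina9 side by side, and Serpina5 beyond them, lay between -0.46 and -0.59, and Serpina3 genes with positive and negative differences followed. Differences between the block and the other members were not tested.

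**Figure D5:**
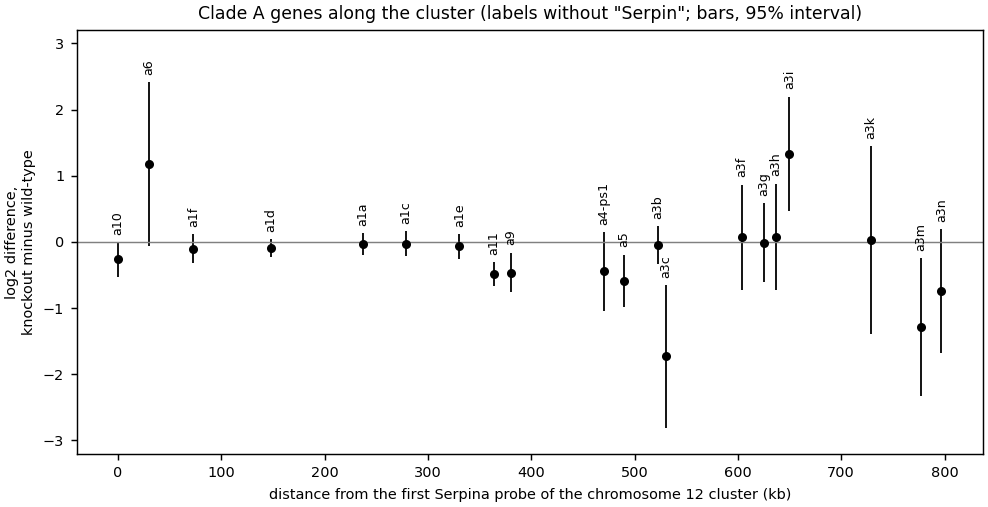
Log2 difference, knockout minus wild-type, with 95% intervals, for the 20 kept clade A genes of the chromosome 12 block against distance from its first probe (kb); labels leave out "Serpin". The a1 genes lie close to 0 with short intervals, and the a3 genes at the far end scatter from -1.73 to 1.33.

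The promoters of Serpina1a, Serpina1c, Serpina1d and Serpina1e are described because they share a stretch of sequence. Any relation of that stretch to their levels was not tested. RefSeq promoter windows, from 250 bases before to 50 after the start of a gene (GRCm38.p6), were found for 49 of the 60 members. The letters GTTAAT, the half-site of the liver factor HNF1, were searched on both strands and occurred in the windows of 10 members and in 7.10% of all 32851 windows. Besides those Serpina1 genes, the members with these letters were Serpina3c, Serpina7, Serpinb3b, Serpinb3d, Serpinb8 and Serpini2. The windows of Serpina1a, Serpina1c, Serpina1d and Serpina1e share 1 identical stretch of 45 bases on the minus strand, with the motif in capitals:
Serpina1a: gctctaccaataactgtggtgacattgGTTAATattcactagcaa
Serpina1c: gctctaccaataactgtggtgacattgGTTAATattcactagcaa
In GRCm38.p6 the Serpina1a stretch lies at chr12:103863623-103863667. The letters TTCNNGGAA, 1 form of the core of sites bound by STAT factors, were also searched on both strands. They occurred in 7 members and in 4.81% of all windows. These members were Serpina3f, Serpina3g, Serpina3i, Serpina11, Serpinb2, Serpinb6a and Serpinb9c. These letters were not in the windows of the other Serpina3 members that have a window, and Serpina3h, Serpina3k and Serpina3m had no window. Other forms of the STAT core were not searched. A match is a description of the letters, not of binding.

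The genes that serpins act with were read from 12 lists, 157 genes in all, of which 147 were tested. At the threshold 2 were lower and 0 higher, where 0.217% of all genes passed. Both belong to the complement proteases that the C1 inhibitor controls. C1ra, the protease that starts the classical pathway, stood at 12.0, 12.6, 13.4 and 12.3 in wild-type and at 9.15, 8.13, 7.51 and 7.64 in knockout livers, a difference of -0.64 (SE 0.08, adjusted p = 0.0281, limma). Its close copy C1rb differed by -0.74 (SE 0.08, adjusted p = 0.00898, limma). Near-identical copies can share signal. Neither passed with 6 arrays (adjusted p = 0.389 and 0.262), where the differences were -0.62 and -0.74. C1ra also lost its call when any 1 array other than wild-type 1 and knockout 1 was left out, and C1rb without wild-type 3, knockout 3 or knockout 4. Masp1, a protease of the lectin pathway, differed by -0.29 (adjusted p = 0.238, limma).

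In the other 11 lists 0 of 138 tested genes passed, by limma, while 31 were lower (22.5%) and 11 higher (7.97%) at an unadjusted p under 0.05, against 6.48% and 6.84% of all genes. The lists were chosen with earlier results of these data known, so these shares describe the lists and test nothing. Genes of 1 list can move together, and the 31 include 6 of the collagen list and 3 of the pancreatic protease list. Among the other plasma inhibitors, the murinoglobulins Mug1 and Mug2, which trap many kinds of protease, differed by -1.89 (adjusted p = 0.0963) and -1.81 (adjusted p = 0.111). Mug1 stood between 1.59 and 4.45 in wild-type and between 0.423 and 1.01 in knockout livers, so its groups did not overlap. Itih4 differed by -0.36 (adjusted p = 0.0946). Of the coagulation proteases, factor VII (F7) differed by -0.38 and protein C (Proc), the target of Serpina5, by -0.20. Plasminogen, the precursor of the enzyme that antiplasmin blocks, differed by -0.21. Angiotensinogen (Agt), a non-inhibitory serpin under another name, differed by -0.32 (adjusted p = 0.148), and its groups did not overlap.

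Collagens, the clients of Serpinh1, had lower means: Col1a1, Col1a2 and Col3a1 differed by -0.44, -0.46 and -0.53, with adjusted p-values of 0.110, 0.0840 and 0.107 (limma). All 9 stellate and fibroblast markers, which include these collagens, had lower means, with a median of -0.26 and a summed level of 164 to 185 in wild-type and 124 to 150.4 in knockout livers. In contrast Serpinh1 itself differed by -0.07. Of the chaperones of the secretory route, Hspa5 differed by 0.40 (adjusted p = 0.231), and 12 of the 15 genes for serpin secretion and clearance had higher means, with a median of 0.15. In the acute phase list Apcs differed by -0.83 (adjusted p = 0.0751), Crp by -0.29 and Saa1 by 0.91 (adjusted p = 0.156), so its members did not share 1 direction. The granzymes Gzma and Gzmb, the second a target of Serpinb9 and Serpina3n, differed by -0.85 and -0.63. Mast cell chymase Cma1 differed by -1.20 (adjusted p = 0.127, limma), on a dim signal. It stood between 0.0352 and 0.0627 in wild-type and between 0.0148 and 0.0315 in knockout livers. Its difference ran from -1.41 to -0.21 over the settings in which it was tested. Other leukocyte proteases had higher means, among them Gzmk by 1.27 (adjusted p = 0.368, limma) and cathepsin G (Ctsg) by 0.19 (adjusted p = 0.364, limma), both named after their values were seen. Of the 13 genes of that list 7 had higher means, with a median of 0.03.

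Wild-type 1, which stood apart for the Serpina3 genes and Serpina6, also stood apart for several blood cell lists. The erythroid list lay 0.49 log2 below the wild-type mean on that array and between 0.02 and 0.30 above it on the other wild-type arrays. The summed level of its 6 tested genes ran from 1214 to 1776 in wild-type and from 1522 to 1678 in knockout livers, and all were above background. The lymphocyte list lay 0.41 below the wild-type mean on wild-type 1 and the neutrophil list 0.19 below it, each the lowest of the wild-type arrays. The megakaryocyte and platelet list did not set that array apart, at 0.12 above the mean against 0.10 on wild-type 2. The macrophage list lay 0.26 above the wild-type mean on wild-type 1, and the hepatocyte list 0.10 below it. The part of the cell mixture in the Serpina3 and Serpina6 values was not tested.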

How the data were processed

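Per the labels' protocols, total RNA from each liver was labelled with Cy3 and hybridised to 1 Agilent array of 62976 spots. The authors deposited spot intensity with a background-corrected processed signal, from Agilent Feature Extraction 10.10 according to the submitters' processing notes. The value table they deposited is in log2 units. It covers 27084 probes, 47 of them Serpin probes, and each column tracked the unnormalized log2 median signal of its array (r from 0.99995 to 0.999994; medians from 8.845 to 8.861). It was used as an alternative.

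Processed signals were divided by the 75th percentile of the non-control probes of an array and taken to log2. Spots that were controls or outlier-flagged were dropped, and repeat spots of a probe were averaged. The test was limma 3.58.1 (lmFit, eBayes, R 4.3.3) over 8 arrays, 4 per group, two-sided, threshold 0.05 after Benjamini-Hochberg adjustment. The number of arrays limits the precision. The series describes the livers as biological replicates. Symbols were updated by accession for 27235 probes and by synonym for 565, from a RefSeq table. Probe coordinates are mm9, per the file headers. The alternatives changed the normalization, background, signal column, filter, probe choice, variance model or arrays, or added Ddx3y or a replicate block. The fit was tested on simulated data.

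The members, lists and alternatives were chosen with earlier results of these data known. Named genes were any Serpin gene past the threshold, in each clade the 3 with the highest mean, the 8 smallest p in each direction, a fixed set of 23 symbols (the antitrypsins, Serpina3k, Serpina3m, Serpina3n, Serpina6, Serpina7, Serpina10, Serpinb1a, Serpinb6a, Serpinb9 and the members followed of clades C to I), and 3 genes per list. Exceptions are marked. One gene is not reported here and is in no count of Serpin genes. Apart from the complement proteases, the lists and the marker lists held 0 called genes, except skeletal muscle, where 1 of 5 tested genes was lower. In that list 4 of the 5 were lower at an unadjusted p under 0.05 (limma) with no overlap, and Mylpf differed by 0.16. The median difference was -1.58. The summed level of the 5 ran from 0.679 to 2.19 in wild-type and from 0.315 to 0.405 in knockout livers. The part of muscle RNA in the liver samples was not tested.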

Additional observations from a re-analysis of the deposited data

Results flagged for a closer look

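Of 76 sets of 4 arrays (38 Serpin genes in 2 groups), 2 held an array far from the other 3 by Dixon's test, and chance gives about 1 in 20. Serpina3c had a log2 level of 4.28 on wild-type 1, where the other wild-type arrays lay between 1.87 and 2.28. Serpinb6a, an intracellular inhibitor whose probe resembles that of Serpinb6c, had a level of 3.75 on knockout 3, where the other knockout arrays lay between 3.63 and 3.64.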

How the results depend on the processing

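Over 23 alternatives the 30 Serpin genes named kept their direction and their side of the threshold in 643 of 689 values. Serpina11 passed in 6 settings, with differences from -0.54 to -0.48 and adjusted p-values (limma) from 0.0101 to 0.0378, and Serpina3c only without wild-type 1. In those 7 settings the count of lower Serpin genes was 1, and in the others 0. The direction turned in 39 values, none of a called gene. Serpina1a stood at 0.0160 with quantile normalization, 0.0154 with normexp and quantile, 0.0002 with normexp and the percentile, 0.0164 in the deposited table and 0.0039 without wild-type 3 and 4. Serpina1c stood at 0.0037, 0.0135 and 0.0201 with quantile, normexp and quantile, and the deposited table, and at 0.0091 without knockout 3 and 4. Serpina3k stood at -0.0120 with normexp and quantile, -0.0148 in the deposited table, -0.0870 with Ddx3y, a Y-linked gene, as a covariate, -0.0597 with 6 arrays and -0.5354 without wild-type 3 and 4. Serpina3f stood at -0.0969 with 6 arrays, -0.0252 without wild-type 3 and 4 and -0.5824 without knockout 3 and 4. Without wild-type 3 and 4 Serpina3h stood at -0.3600, Serpinh1 at 0.0224 and Serpini1 at -0.0353, and the median signal gave -0.0020 for Serpini1. Without knockout 3 and 4 Serpinb6b stood at -0.1080 and Serping1 at 0.0700. Leaving out 1 array at a time gave ranges of -0.0762 to 0.0042 for Serpina1a, -0.0781 to 0.0333 for Serpina1c, -2.00 to -1.19 for Serpina3c, -0.2015 to 0.3718 for Serpina3f, -0.1270 to 0.38 for Serpina3h, -0.4033 to 0.56 for Serpina3k, -0.12 to 0.0161 for Serpinb6a, -0.0182 to 0.16 for Serpinb6b and -0.24 to 0.0819 for Serpinb9.

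Counts over all genes (42 lower, 9 higher) and over the lists (2 lower, 0 higher) moved more. With normexp and quantile they were 117, 23 and 4 (lower, higher, lists lower), with normexp and the percentile 123 lower and 5 in the lists, with the median signal 114 and 5, and with the trend and robust model 119, 30 and 7. The deposited table gave 120 and 21, and 5 lower and 1 higher in the lists. Quantile normalization and the array median each gave 14 higher. No filter gave 19, 0 and 1, and Ddx3y as a covariate 78 lower and 4 in the lists. With 6 arrays they were 6, 0 and 0, without wild-type 3 and 4 they were 11, 2 and 0, and without knockout 3 and 4 they were 9, 3 and 0, with 1 higher in the lists. Leaving out 1 array gave 14 to 66 lower, 0 to 24 higher, 0 to 1 lower Serpin genes and 0 to 3 lower genes in the lists. The causes were not tested. With the replicate block 17 genes were lower, 2 higher and 0 in the lists, with 0 Serpin genes called. Replicate numbers did not pair the arrays, since same-numbered deviations correlated at -0.114, -0.028, -0.012 and 0.069. Over 36 genes named from the lists 0 values turned direction, and 19 gained and 18 lost a call.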
